A study of Enchytraeus crypticus with 9 samples.

Results

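The 200 transcripts described here gave lower signals on an expression array of whole cocoons after 1 day of cadmium exposure at both 5 and 16 mg Cd/kg soil, by nearly the same amount at each dose. Each was measured by 1 probe, and they were taken from the 43750 probes of the array by a rule that used the measured signals. A probe had to be well above background on all 9 arrays, which held for 16952 probes, and could not be among the 200 with the highest mean level in controls, which left 16752. The means at 5 and 16 mg had to lie within 0.5 of each other on the log2 scale, which left 11857 probes, called the candidate probes below. Of these, 1826 had a level on every cadmium array that was lower than on every control array, and the 200 with the largest such gap are described here.

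The organism was Enchytraeus crypticus, a small soil oligochaete (potworm) whose eggs develop inside cocoons. Cocoons aged 1 to 2 days after laying were kept for 1 day in LUFA 2.2, a natural standard soil, to which cadmium had been added at 5 or 16 mg Cd/kg, or in the same soil un-spiked as the control. Each group had 3 biological replicates by its labels, and each replicate was total RNA from a pool of 300 whole cocoons, labelled with Cy3 and hybridised to 1 array. No strain, line or genetic change is given in the labels, and a whole cocoon extract gives no information on single tissues or cells. The series names both concentrations as ones that disturb embryonic development, and the comparison asks which transcripts were lower at both of them.

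Cadmium is a toxic metal with no known role in animals. It binds to thiol groups of proteins, can take the place of zinc and calcium in their binding sites, and is known to raise metallothioneins, small cysteine-rich metal-binding proteins, in many animals including worms. An early embryo changes its transcripts quickly as it develops, so a lower level after exposure in whole cocoons can reflect a change within cells, a change in which cells are there or a change in the pace of development, and RNA pooled from whole cocoons does not tell fewer cells of a type apart from less RNA per cell.

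The array was designed on transcript sequences of the worm, and its probes are named after assembled sequences (contigs) or single sequencing reads. Gene names are not paired with these identifiers in the files, and no probe sequence was used here, so the transcripts are described by their values and only a few are named by identifier. A level is the log2 ratio of a probe's processed signal to the 75th percentile on its array: 0 is the brightness below which 3 in 4 probes of that array lie.

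The first array at 5 mg Cd/kg was the only one on its slide (slide 3). No other array shared its scan time in the file headers, which also held for control arrays 1 and 2. Its 75th percentile of the processed signal was the lowest at 38.3, against 48.9 to 87.3 on the other cadmium arrays and 74.4 to 78.1 on the control arrays. Counts of probes well above background ran from 19614 to 23287 at the lower dose, from 22361 to 27239 at the higher dose and from 26173 to 29481 in controls. With 3 arrays a group, precision is limited throughout.

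The 200 transcripts had levels about 2.8-fold lower at either dose than in controls. On the log2 scale the median difference was -1.50 for the lower and -1.48 for the higher dose, which are median folds of 2.84 and 2.78. Since these values chose the transcripts, they are given as a description with no test. At 5 mg the differences ran from -3.43 to -0.86 with an interquartile range from -1.69 to -1.33, and at 16 mg from -3.16 to -0.80 with an interquartile range from -1.70 to -1.28. More than 2-fold lower levels were reached by 196 of the 200 at 5 mg, by 193 at 16 mg and by 191 at both. Among the 11857 candidate probes, 1232 (10.4%) were more than 2-fold lower at 5 mg, 1207 (10.2%) at 16 mg and 880 (7.42%) at both. Differences over 4-fold were rarer, with 15 of the 200 at 5 mg and 17 at 16 mg Cd/kg, against 36 (0.304%) and 27 (0.228%) of the candidate probes. On this scale the candidate probes as a whole did not lie below the controls. They had a median difference of 0.22 at the lower and 0.26 at the higher dose. Neither set holds a probe that fell to background on any array, since the rule left such probes out.

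The gap that ranked the transcripts, the lowest control minus the highest cadmium array, had a median of 0.73 and ran from 0.61 to 1.38. All 6 cadmium arrays lay below all 3 controls for 15.4% of the candidate probes, and by the rule for each of the 200. The opposite, all 6 cadmium arrays above all 3 controls, held for 3070 candidate probes (25.9%). The edge of the list is not a break in the data. The last transcript inside it had a gap of 0.6090, with mean levels of -1.97 ± 0.25 at 5 mg, -2.14 ± 0.22 at 16 mg and -1.06 ± 0.02 in controls (SD, n = 3 each). The first probe outside it had a gap of 0.6079, with mean levels of 0.36 ± 0.22 at 5 mg, 0.78 ± 0.69 at 16 mg and 2.22 ± 0.14 in controls (SD, n = 3 each).

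**Figure D1:**
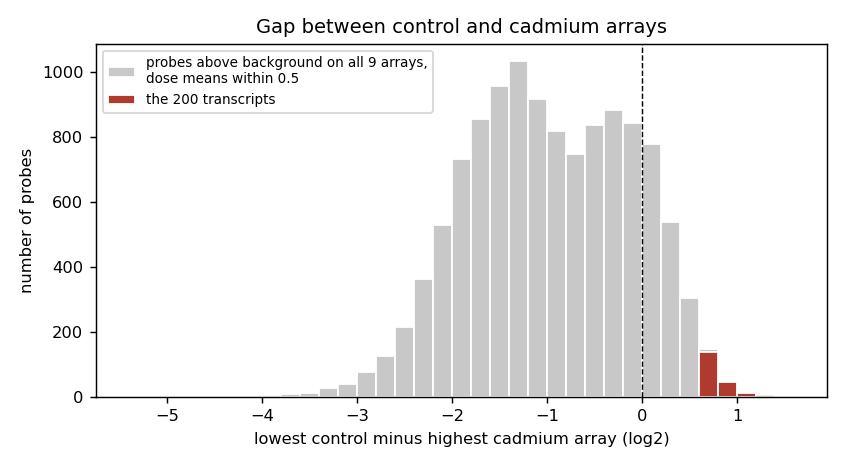
Number of candidate probes (vertical axis) by the gap between the lowest control and the highest of the 6 cadmium arrays (horizontal axis, log2), in steps of 0.2, with the 200 transcripts in red and the dashed line at a gap of 0. The 1826 probes right of the line thin out without a break, and the 200 begin at a gap of 0.61.

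The widest gap belonged to contig20237. Its levels were 1.24, 0.70 and 1.21 at 5 mg, 1.77, -0.14 and 1.26 at 16 mg and 4.36, 3.15 and 3.73 in controls. In brightness, its processed signal was 90.7, 82.1 and 196 at 5 mg, 166, 72.0 and 209 at 16 mg and 1607, 658 and 986 in controls. Every control array was thus several times brighter than every cadmium array, while the controls themselves differed among each other more than those of most of the 200. The mean level was 1.05 ± 0.30 at 5 mg, 0.96 ± 0.99 at 16 mg and 3.75 ± 0.61 in controls (SD, n = 3 each), which is 6.47-fold lower at 5 mg and 6.88-fold lower at 16 mg than in controls.

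The next gap belonged to GYUW2K401BMHIB, a probe on a single sequencing read. Its levels were -1.22, -1.34 and -2.06 at 5 mg, -1.89, -2.54 and -1.32 at 16 mg and 0.26, 0.14 and 0.16 in controls. The 3 controls lay within 0.13 of each other here, far tighter than the cadmium arrays of either dose, and no cadmium array came near them. Its mean was 3.31-fold lower at 5 mg (-1.54 ± 0.46) and 4.29-fold lower at 16 mg (-1.92 ± 0.61) than in controls (0.18 ± 0.07; SD, n = 3 each).

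**Figure D2:**
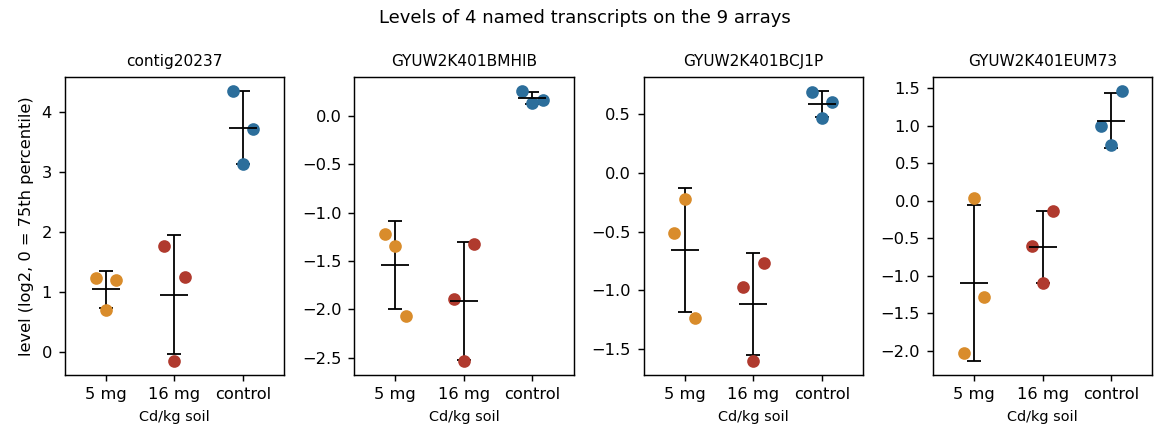
Level (vertical axis, log2, 0 is the 75th percentile of the array; the scale differs between panels) of 4 named transcripts at 5 mg Cd/kg, 16 mg Cd/kg and in controls, with a point for each array and a bar for mean and SD (n = 3). In each panel all 6 cadmium arrays lie below all 3 controls, and the arrays of the 2 doses overlap.

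One transcript, contig12530, was singled out after its values were seen because its spot on control array 3 was marked as outlying. Its levels were 0.28, -1.07 and -0.51 at 5 mg, -0.23, -0.84 and 0.60 at 16 mg and 1.26, 1.25 and 6.49 in controls. The third control was far above the other 2, and the local background around that spot was 9821, against a median of 35 around the spots of all the transcripts on the same array. With that spot left out the differences of this transcript were -1.68 at 5 mg and -1.41 at 16 mg, in place of -3.43 and -3.16. Without this transcript the differences over the other 199 ran from -3.02 to -0.86 at 5 mg and from -2.99 to -0.80 at 16 mg, with medians of -1.50 and -1.48.

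Both doses gave close levels, as the rule required. The difference of means, 16 mg minus 5 mg, had a median of 0.03 over the 200 and ran from -0.46 to 0.48. It lay within 0.1 for 77 of them (38.5%), against 3101 (26.2%) of the candidate probes. The 16 mg mean was the lower one for 90 of the 200 (45%), against 6422 (54.2%) of the candidate probes. The gap uses the arrays of both doses, so nothing is read from these shares. The transcript with the most negative difference was GYUW2K401BCJ1P, with levels of -0.97, -1.60 and -0.77 at 16 mg and -0.51, -0.22 and -1.24 at 5 mg, beside 0.69, 0.47 and 0.60 in controls. The most positive difference was that of GYUW2K401EUM73, with levels of -0.61, -1.10 and -0.15 at 16 mg and -2.03, 0.03 and -1.28 at 5 mg, beside 1.00, 0.73 and 1.46 in controls. In both, the arrays of one dose overlapped those of the other. The rule keeps the dose means close, so this overlap says nothing more about the doses.

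The 200 differed in depth from one cadmium array to another. Their median difference from the control mean was -1.03, -1.43 and -1.92 on 5 mg arrays 1, 2 and 3 and -1.45, -2.04 and -0.99 on 16 mg arrays 1, 2 and 3, against 0.04, -0.10 and 0.05 on the 3 control arrays. The mean of these array medians was -1.46 ± 0.45 at 5 mg, -1.49 ± 0.53 at 16 mg and 0.00 ± 0.08 in controls (SD, n = 3 each). The arrays within a dose differed by about 1 on the log2 scale, while the doses, kept close by the rule, had nearly the same mean. The candidate probes did not follow this: their medians were 0.37, 0.04 and 0.19 at the lower dose, 0.24, 0.31 and 0.16 at the higher dose and -0.01, 0.02 and -0.01 in controls.

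**Figure D3:**
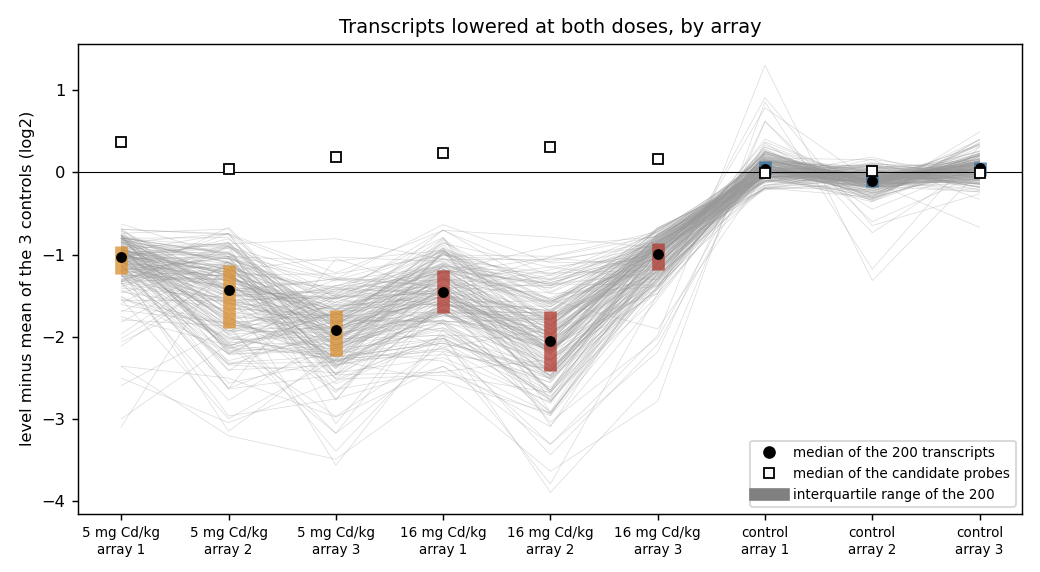
Level of each transcript minus the mean of its 3 controls (vertical axis, log2) on each of the 9 arrays (horizontal axis); grey lines join the values of 1 transcript (contig12530, with the outlying spot, is not drawn), filled points are the medians of the 200, thick bars their interquartile range, and open squares the medians of the candidate probes. The medians of the 200 lie between -2.04 and -0.99 on the cadmium arrays, deepest on 5 mg array 3 and 16 mg array 2, while the open squares lie between 0.04 and 0.37.

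The same arrays were the deepest for most single transcripts. Of the 6 cadmium arrays, 16 mg array 2 was the lowest for 109 of the 200 and 5 mg array 3 for 63, together 172 (86%). One of these 2 arrays was also the lowest for 1391 (76.2%) of all 1826 probes below the controls, and for 3808 (32.1%) of the candidate probes. The highest of the 6 was 16 mg array 3 for 99 and 5 mg array 1 for 62, together 161 (80.5%), beside 1414 (77.4%) of the 1826 and 6909 (58.3%) of the candidate probes. The wider set of probes below all controls, which includes the 200, shared the 2 pairs of arrays in this profile but not the order within them. Of the 1826, 5 mg array 3 was the lowest for 879 (48.1%) and 16 mg array 2 for 512 (28.0%). The highest was 5 mg array 1 for 902 (49.4%) and 16 mg array 3 for 512 (28.0%). The gap also uses the highest cadmium array. Among the controls, array 2 was the lowest for 138 of the 200 (69%), against 900 (49.3%) of all 1826 probes below the controls and 3411 (28.8%) of the candidate probes, and the gap uses that value. The 9 arrays differed in other respects too. The spike-in RNA, added in the same amount to each sample, had a mean log2 signal of 9.54 on 16 mg array 3 and 9.52 on control array 1. It was 8.90 to 9.21 on the other 7 arrays, which included 5 mg arrays 1 and 3, 16 mg array 2 and control array 2. The part of the spike-in signal in the profile was not tested.

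The spread between arrays was wider in cadmium than in controls. The median SD of the 200 was 0.52 at 5 mg, 0.54 at 16 mg and 0.14 in controls, and the SD exceeded that of the controls for 188 of them (94%) at 5 mg and 187 (93.5%) at 16 mg, against 10807 (91.1%) and 9525 (80.3%) of the candidate probes. For the candidate probes the median SD was 0.58, 0.34 and 0.17. The 200 were thus near the candidate probes at 5 mg and more variable than most at 16 mg. The low control spread is partly set by the rule, since a tight control group raises its lowest array.

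In brightness, the 200 were moderate signals. Their control means ran from -1.33 to 6.18 with a median of 0.60, so most were above the 75th percentile of the array in unexposed cocoons: 141 of the 200 (70.5%), against 6965 (58.7%) of the candidate probes. Of these 141, 87 (43.5% of the 200) had both cadmium means below the 75th percentile, against 853 (7.19%) of the candidate probes, and the lower cadmium levels are what chose the 200. The median processed signal of the 200 was 25.2, 24.0 and 32.0 at the lower dose, 24.8, 29.7 and 66.0 at the higher dose and 123, 105 and 113 in controls. The array software's own error of a spot was 11.5% to 12.3% of the signal at 5 mg, 10.3% to 11.5% at 16 mg and at most 10.1% in controls (medians of the 200 on each array). This error covers the reading of a spot and not the spread between pools of cocoons.

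Contigs were common among the 200. Of them, 173 (86.5%) were named as contigs and 27 as single reads, whereas contigs made up 6650 (56.1%) of the candidate probes and 23177 (53.0%) of all probes. The share was high at every part of the list, with 43, 45, 43 and 42 contigs in successive groups of 50 by gap. It was also high whether the control mean lay above the 75th percentile, with 123 of 141 (87.2%), or below it, with 50 of 59 (84.7%), where the candidate probes had 56.8% and 55.0%. Among the other 1626 candidate probes whose cadmium arrays all lay below the controls, 1227 (75.5%) were contigs, and among the 3070 whose cadmium arrays all lay above the controls, 1444 (47.0%). A contig joins overlapping reads, so that a transcript read more often when the array was designed is more likely to be one. The identifier took no part in the choice of the 200, and these shares are given with no test.

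**Figure D4:**
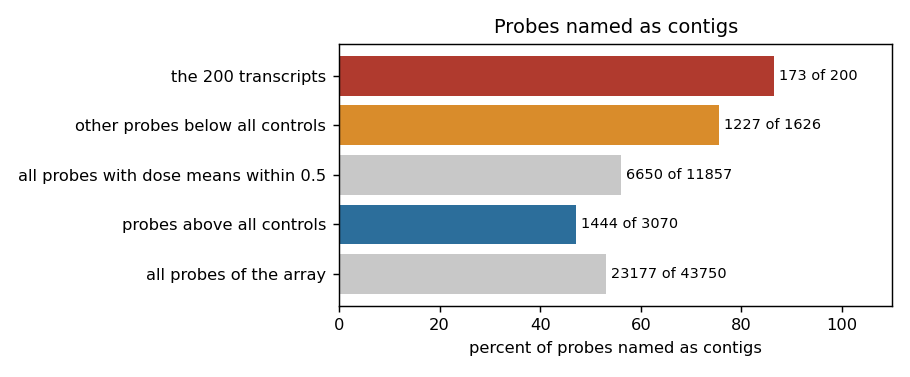
Percent of probes named as contigs (horizontal axis) among the 200 transcripts, the other candidate probes whose 6 cadmium arrays lay below all controls, all candidate probes, the candidate probes whose cadmium arrays lay above all controls, and the whole array, with the counts beside the bars. The share is 86.5% for the 200 and 47.0% for the probes above all controls.

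The spots of the 200 were spread over the array. When the array was cut into 4 equal blocks by rows and columns, these held 58, 64, 37 and 41 of them, so that 122 (61%) lay in the 2 blocks of low row numbers, against 5990 (50.5%) of the candidate probes. Their median spot width was within 47.5 to 49.2 on every array. The rule did not rank the local background around their spots, but it used background-subtracted signals and a filter against background. This local background had a median of 44, 38 and 35 at the lower dose, 38, 37 and 34.5 at the higher dose and 30, 31 and 35 in controls. The medians of all probes on the arrays were within 0.5 of these. The mean over the spots, the planned measure, was 10.4 lower on the 6 cadmium arrays than on the 3 controls (exact permutation test, two-sided, p = 0.667), but that rested on the spot of contig12530 on control array 3. With medians over the spots, cadmium arrays were 5.75 higher (exact permutation test, two-sided, p = 0.0714, where 6 against 3 arrays can reach 0.0238), and all 6 were at or above 2 of the 3 control arrays. Whether this part of the signal bears on the lower levels was not tested.

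The rule was also applied to 8 arrays at a time, and the 200 probes so chosen were read on the ninth. The left-out array took no part in the choice, but the arrays it is set against did. The share that would lie beyond them with no change is not known, and the share of all probes that could have been chosen does not give it. With 5 mg array 1 left out, 170 of the 200 (85%) lay below all 3 controls on it, against 42.0% of the probes that could have been chosen, and the median difference was -0.77. With 5 mg array 2 or 3 left out, 195 and 200 of the 200 did so, against 47.8% and 40.2%, with median differences of -1.32 and -1.87. With 16 mg arrays 1, 2 and 3 left out in turn, 195, 200 and 189 of the 200 lay below all controls, against 34.3%, 41.0% and 35.4%, with median differences of -1.42, -1.95 and -0.78. With control arrays 1, 2 and 3 left out, 199, 200 and 193 of the 200 lay above all 6 cadmium arrays on that control, against 21.4%, 21.7% and 22.0%. Among the cadmium arrays, the smallest median differences were those of 5 mg array 1 and 16 mg array 3. On 5 mg array 1, 22 of the 200 lay above the control mean. On 5 mg array 2 and 16 mg array 1 it was 2 each, and on the other cadmium arrays 0. Not well above background were 9, 11 and 4 of the 200 on 5 mg arrays 1, 2 and 3. On 16 mg arrays 1, 2 and 3 these were 4, 1 and 0.

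**Figure D5:**
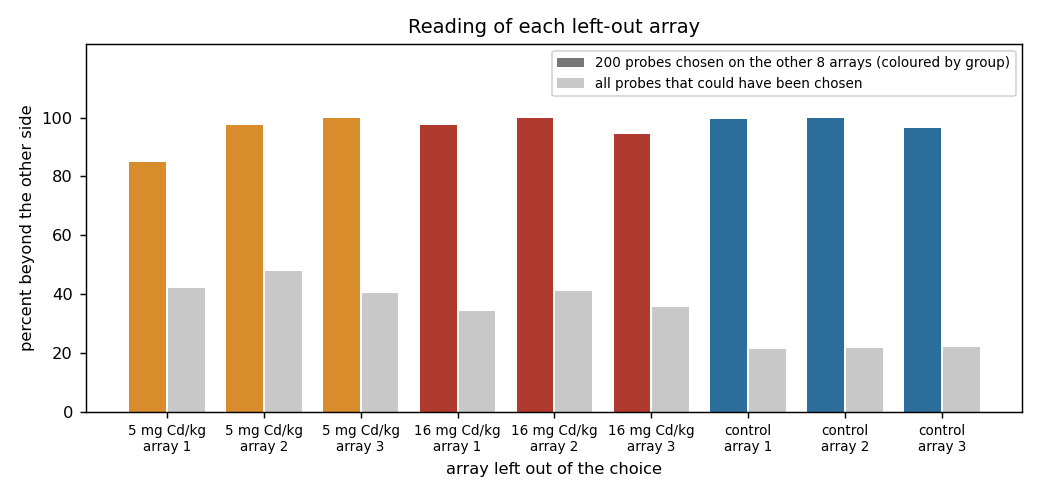
Percent of probes (vertical axis) that, on the array left out of the choice (horizontal axis), lay below all 3 controls for a cadmium array or above all 6 cadmium arrays for a control array, for the 200 probes chosen on the other 8 arrays (coloured by group) and for all probes that could have been chosen (grey). The coloured bars run from 85% to 100% and the grey bars from 21.4% to 47.8%.

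The list itself depended on the arrays at its edge. Without 5 mg array 1, 2835 probes met the rule in place of 1826, and 88 of the 200 stayed among the first 200. Without 16 mg array 3, 100 stayed. These are the 2 arrays that were most often the highest of the cadmium arrays. Without any one of the other 7 arrays, 137 to 178 stayed.

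Each of 2 slides held all 3 groups. Within slide 1, which held 5 mg array 2, 16 mg array 1 and control arrays 1 and 3, the median difference of the 200 was -1.51 at 5 mg and -1.52 at 16 mg. Within slide 2, which held 5 mg array 3, 16 mg arrays 2 and 3 and control array 2, it was -1.83 and -1.40. The only scan time shared by arrays of all 3 groups gave -1.52 and -1.51. By slide the difference between the doses, 16 mg minus 5 mg, was 0.08 on slide 1 and 0.41 on slide 2. These arrays are among those that chose the 200, so both the direction and the size of these values are set in part by the rule and nothing is read from them.

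The 75th percentile sets the scale of these levels. Scaled on the spike-ins instead, the median of the candidate probes was -0.15 in place of 0.22 at 5 mg and 0.12 in place of 0.26 at 16 mg, and that of the 200 was -1.87 and -1.62. This scaling moves every probe of an array by the same amount, so the difference of medians between the 200 and the candidate probes is by construction the same on both scales, at -1.72 for 5 mg and -1.74 for 16 mg. With normexp background correction and quantile normalization, with an offset of 50 that draws dim signals together, the difference of medians was -0.67 and -0.66.

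In the fit across all tested probes, limma with all 9 arrays, 172 of the 200 passed an adjusted p of 0.05 as lower at 5 mg Cd/kg (Benjamini-Hochberg over 25915 probes), where 5.55% of all tested probes were called lower. The rule used this contrast, so nothing is read from the count. At 16 mg Cd/kg 0 of the 200 passed, where 0% of tested probes were called lower, although all 200 had an unadjusted p under 0.05, as did 7274 (28.1%) of the tested probes. The smallest adjusted p of the 200 was 0.112 in that limma fit. With only the 16 mg and control arrays in the fit, all 200 passed (largest adjusted p 0.0285, limma), where 22.4% of the tested probes were called lower, and with only the 5 mg and control arrays 44 passed, where 1.55% were called lower. Between the doses 0 of the 200 passed (limma, all 9 arrays or the 2 groups alone). Of the tested probes, 0.104% were called with all 9 arrays and 0% with the 2 groups alone. An unadjusted p under 0.05 was reached by 0 of the 200 in either fit, against 1426 and 755 of the 25915 tested probes. The rule keeps the dose means close, so this says nothing about whether the doses act alike.

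The calls at 5 mg also rested on single arrays, among the 200 and among all tested probes. Without any one control array or 5 mg array 3, 0 of the 200 passed (smallest limma adjusted p between 0.0586 and 0.134). In each of these fits 0% of all tested probes were called lower. Without 16 mg array 1, 39 passed, where 1.61% of tested probes were called lower. Without 5 mg array 1, 200 passed at 5 mg and 197 at 16 mg, where 21.8% and 9.52% of tested probes were called lower. With a replicate block 74 passed at 5 mg, where 2.79% were called lower, and with array weights 200 passed at 16 mg, where 22.1% were called lower.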

How the data were processed

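The data were 9 Agilent arrays of 1 colour, 3 per group. Per the file headers, Agilent Feature Extraction 10.7.3.1 made the deposited intensity values of spots and local background, the spot errors and the processed signals, which were background-subtracted within each array and not scaled between arrays. The authors' series table holds the same intensity values rounded (largest difference 0.497%); the medians of its columns were 7.23, 7.41 and 11.3 at 5 mg, 7.99, 12.0 and 13.8 at 16 mg and 15.6, 15.0 and 13.6 in controls. No genome build applies. Control features (1417) were left out, and 63 spots marked as outlying were left out of the fit; no spot was saturated.

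The log2 level was the processed signal over the 75th percentile of its array. The fit was limma 3.58.1 (R 4.3.3) (lmFit, eBayes, two-sided) with 3 groups and 9 arrays, over the 25915 probes that every array of some group showed well above background. It was also run on simulated data whose errors were independent between probes and arrays. Such data cannot say how a spread shared by many probes of an array bears on the calls. The files hold no mean spot signal, so normexp (offset 50) used the median one. Selection, counts and exact permutation tests used Python 3.11.15, numpy 2.4.6, pandas 2.3.3 and scipy 1.17.1. Other scalings, filters, blocks and left-out arrays were tried. The transcripts, lists and tests were chosen with earlier results of these data known. Named transcripts were the 2 with the largest gap and the 2 with the outermost difference between the doses. Gene lists were not used, as the probes carry no gene names. Samples are called biological replicates by the labels, so p-values rest on the spread between such pools.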

Additional observations from a re-analysis of the deposited data

Results flagged for a closer look

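The median local background around the spots of the 200 transcripts was 44 on 5 mg array 1, against 34.5 to 38 on the other 5 cadmium arrays. The gap to the next array, divided by the whole range, exceeded the critical value of Dixon's test for 6 values, which chance alone exceeds in about 1 of 20 groups. The medians of all probes on the arrays showed the same array apart, at 43.5 against 34.5 to 38.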

How the results depend on the processing

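With 1 array left out at a time, limma called 0 to 200 of the 200 transcripts lower at 5 mg Cd/kg. The share of all tested probes called lower there was 0% to 21.8%. At 16 mg Cd/kg, 0 to 197 of the 200 and 0% to 9.52% of tested probes were called lower. Over the same left-out arrays, the median difference ranged from -1.73 to -1.27 at 5 mg and from -1.74 to -1.21 at 16 mg. The probes meeting the rule ranged from 1617 to 2835, the shared transcripts from 88 to 178 and the local background difference from -19.7 to 7.47. The count of 172 at 5 mg became 74 with a replicate block (2.79% of tested probes called lower) and 44 with 2 groups (1.55%). It became 0 with no filter on dim probes or with the scan time as a block, where 0% of tested probes were called lower in either fit. In the latter fit only control array 3 shares a scan time with cadmium arrays. The count of 0 at 16 mg became 200 with array weights (22.1%) or 2 groups (22.4%). None of the 200 passed between the doses in any of 20 alternatives, where at most 94 of all tested probes were called. The rule keeps the dose means of the 200 close, so nothing is read from this. With normexp and quantile the median differences were -0.62 at both doses, and 78 of the 200 were chosen again, against 93 with spike-in scaling. The local background difference of -10.4 turned to 4.41 over all probe spots and to 5.75 with medians, which was added after seeing the data. The causes were not tested. The replicate numbers were not taken to pair the samples. Deviations from the group means correlated from -0.10 to 0.33 between same-numbered samples and from -0.26 to 0.26 between the others. Not every sample correlated best with its own number, but the largest correlation was between control array 3 and 16 mg array 3. These correlations do not settle whether the numbers pair the samples.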
